A study of Mus musculus with 5 samples.

Results

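The mismatch repair genes described here are Msh6, Msh3, Pms2, Mlh3 and Pms1, 5 of the 22869 gene symbols in the deposited table. They were taken by symbol, and each had 1 transcript row (NM_010830, NM_010829, NM_008886, NM_175337 and NM_153556). RNA was sequenced from intervillus cells, the proliferating epithelium between villi, captured by laser from mouse proximal jejunum on postnatal day 0. The 2 mutant libraries, numbered 4 and 6, came from mice of genotype Dnmt1 L/L; VillinCre, with 2 floxed alleles of the maintenance DNA methyltransferase Dnmt1 and a Cre recombinase driven in gut epithelium. The 3 control libraries, numbered 1, 2 and 3, came from Dnmt1 L/+ littermates, with 1 floxed allele and no Cre in the label. Mutant areas were taken where Ki67, a protein of cycling cells, was absent, and control areas where it was present, so genotype and this choice of areas cannot be told apart in any comparison here. Cells outside the epithelium, which the Villin driver does not reach, were also in the captured areas.

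Mismatch repair removes bases that DNA polymerase has paired wrongly, and the small loops left when it slips on repeats. MutS proteins find the error as heterodimers with a shared subunit: MSH6 makes the complex for single mismatches and short loops, MSH3 the one for longer loops. MutL heterodimers are then recruited: PMS2 carries the nicking activity of the main one, MLH3 acts mostly at meiotic crossovers, and PMS1 has no settled role in repair. The error is cut out by the exonuclease EXO1, the gap is filled by DNA polymerase delta on the sliding clamp PCNA, and the nick is sealed by DNA ligase I. The pathway is best known in the intestine because its inherited loss causes colorectal cancer in humans. Repair acts on freshly replicated DNA.

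The promoter windows of Msh6 and Pms2 are shown, the first with and the second without a match to the E2F spellings given below. Each runs from 250 bases before to 50 after the annotated start (base 251 of the window), from RefSeq on the build GRCm38.p6. Capitals mark matches, on either strand, to the 4 spellings of the binding sequence of E2F cell cycle factors (TTTCCCGC, TTTGGCGC, TTTCGCGC or TTTGCCGC) or to CCAAT, the NF-Y box. The windows lie at chr17:87974800-87975099 (plus strand) and chr5:143909751-143910050 (plus strand).
Msh6: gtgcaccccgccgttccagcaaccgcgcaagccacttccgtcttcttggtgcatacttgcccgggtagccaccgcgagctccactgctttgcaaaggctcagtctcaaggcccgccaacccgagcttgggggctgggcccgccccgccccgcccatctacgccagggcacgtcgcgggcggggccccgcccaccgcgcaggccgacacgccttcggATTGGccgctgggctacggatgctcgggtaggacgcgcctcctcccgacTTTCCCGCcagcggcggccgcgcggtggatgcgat
Pms2: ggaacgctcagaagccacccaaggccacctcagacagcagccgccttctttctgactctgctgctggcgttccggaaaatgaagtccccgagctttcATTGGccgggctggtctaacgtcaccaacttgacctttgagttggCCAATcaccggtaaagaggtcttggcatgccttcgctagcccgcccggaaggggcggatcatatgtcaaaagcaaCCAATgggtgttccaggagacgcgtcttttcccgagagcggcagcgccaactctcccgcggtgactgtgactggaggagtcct
The Msh6 window holds TTTCCCGC at bases 266 to 273, after the start, and the Pms2 window holds 3 copies of CCAAT and none of the 4 E2F spellings. At least 1 of the 4 E2F spellings was found in 2 of the 5 members (Msh6 and Msh3), in 5 of 18 partner genes with a window, in 7 of 14 genes of the S phase list, in 1 of 13 genes of the mitosis list and in 2.60% of 27025 genes. CCAAT was found in 4 members (all but Msh3), in 10 of 18 partner genes and in 9 of 14 genes of the S phase list. It was also found in 12 of 13 genes of the mitosis list and in 41.1% of genes. The windows of the members held 19 to 37 CpG, the base pair step that DNMT1 methylates, against a median of 7 and an upper quartile of 20 over 32851 windows; the lowest, that of Pms2, lay under this quartile. A match is a description of the letters and no evidence of binding, and methylation was not measured in these libraries.

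Counted with 1 row per gene, the libraries held 8730268 and 10260760 reads in mutants 4 and 6, and 10530200 to 13356901 reads in controls. The targeted gene Dnmt1 averaged 39.1 CPM in mutants and 115 CPM in controls (log2 fold change -1.56, edgeR adjusted p = 3.74e-05), where CPM is a gene's read count relative to the TMM-corrected size of its library. Y-linked transcripts of 4 genes gave 4 and 3 counts in mutants 4 and 6 and 2710 to 3160 in controls. Xist, the RNA of the inactive X chromosome, gave 10179 and 8277 counts in mutants 4 and 6 and 42 to 72 in controls. Both mutant libraries thus read as female and all controls as male, so genotype and sex cannot be told apart in any comparison here. The epithelial adhesion gene Epcam averaged 875 ± 3.78 CPM in mutants and 1020 ± 76.8 CPM in controls (SD, n = 2 and 3). The 10 epithelial markers summed to 4480 and 4350 CPM in mutants and 4630 to 4770 CPM in controls. Of these 10, Cdx2 was lower (log2 fold change -0.94, edgeR adjusted p = 0.00454). Krt18 was higher (0.79, edgeR adjusted p = 0.00255), and 8 did not pass. At an edgeR adjusted p under 0.05, 4.17% of all genes tested were lower and 6.11% higher. Markers of mesenchyme, all 10 detected, summed to 1810 and 1680 CPM in mutants and 1090 to 1180 CPM in controls, and 6 of the 10 rose. Immune markers, all 8 detected, summed to 369 and 313 CPM in mutants and 191 to 206 CPM in controls, with 2 of 8 higher (Csf1r and Aif1). Much of the rise in this sum lay in Csf1r, at 175 and 160 CPM in mutants and 61.1, 70.1 and 41.4 CPM in controls. The groups of C1qa, C1qb and Cd74 overlapped. The 6 endothelial markers summed to 219 and 190 CPM in mutants and 156 to 190 CPM in controls. The 7 neural markers summed to 51.6 and 54.4 CPM in mutants and 21.1 to 31.7 CPM in controls. The 5 erythroid markers summed to 68.4 and 66.5 CPM in mutants and 49.4 to 61.8 CPM in controls, but the list was mixed. Alas2 was lower (log2 fold change -1.02, edgeR adjusted p = 0.0428), and the 4 globin rows did not pass. Hba-a1 and Hba-a2 held the same counts in every library, as did Hbb-b1 and Hbb-b2, so this sum repeats those counts. The part of these other cells in the results below was not tested. In such bulk samples, fewer cells of a type and less RNA per cell cannot be told apart.

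Msh3 was lower in the Dnmt1 mutants, and it was the only one of the 5 genes to pass the test over the whole table. All 5 had a negative log2 fold change, with a median of -0.51, where the median over the 14572 genes tested was -0.01 and 50.8% of genes were negative. In 3 of the 5, Msh3, Pms2 and Pms1, both mutants lay below all controls, which was so in 21.8% of all genes. In 0 members did both lie above all controls (21.7% of all genes). The threshold of an edgeR adjusted p under 0.05 was passed downward by 4.17% of genes and upward by 6.11%, and by 1 of the 5 members downward and 0 upward. At an unadjusted p under 0.05, 3 members were lower (12.1% of all genes) and 0 higher (share of all genes not computed). DESeq2 called 1 member lower, limma-voom 1 and the edgeR exact test 2, and none of these tools called a member higher. Of all 14572 genes they called 702, 505 and 812 lower and 1040, 931 and 1196 higher, in that order.

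Msh3, the MutS subunit for longer loops, had 206 and 228 counts in mutants 4 and 6, against 522, 485 and 417 counts in controls 1, 2 and 3. In CPM it was 18.2 and 17.6 in the mutants and 28.7, 28.7 and 29.4 in the controls. The values within each group lay close together and the groups were well apart. The mutant mean was 17.9 ± 0.446 CPM (SD, n = 2) and the control mean 28.9 ± 0.370 CPM (SD, n = 3), so the mutants held 61.9% of the control level. The log2 fold change was -0.69 ± 0.17 (SE; 95% interval -1.05 to -0.34; edgeR adjusted p = 0.0170), at percentile 6.61 of the fold changes of all genes. The size of the difference hardly moved when any 1 library was left out (-0.72 to -0.67), but leaving out control 1, mutant 4 or mutant 6 took the edgeR adjusted p past the threshold, to 0.0638, 0.108 and 0.122 in that order. On the deposited FPKM (the authors' read values per transcript length and depth), both mutants (4.38 and 5.11) were again below all controls (8.36, 6.60 and 6.56), but the test missed the threshold (limma adjusted p = 0.265 on log2(FPKM + 1)).

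Msh6, the MutS subunit for single mismatches, had 465 counts in each mutant, against 1074, 933 and 552 counts in controls 1, 2 and 3. In CPM it was 41.1 and 35.9 in mutants 4 and 6 and 59.1, 55.2 and 38.9 in the controls. Control 3 lay between the mutants, and controls 1 and 2 lay above them. The means were 38.5 ± 3.72 CPM in mutants and 51.1 ± 10.7 CPM in controls (SD, n = 2 and 3), a log2 fold change of -0.41 ± 0.18 (95% interval -0.80 to -0.02; edgeR adjusted p = 0.176). Without control 3 the log2 fold change was -0.57 and passed (edgeR adjusted p = 0.0297). On the deposited FPKM the mutants stood at 10.5 and 8.16, both above control 3 (7.18), where in CPM only mutant 4 was, and below controls 1 and 2 (14.8 and 12.4).

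**Figure D1:**
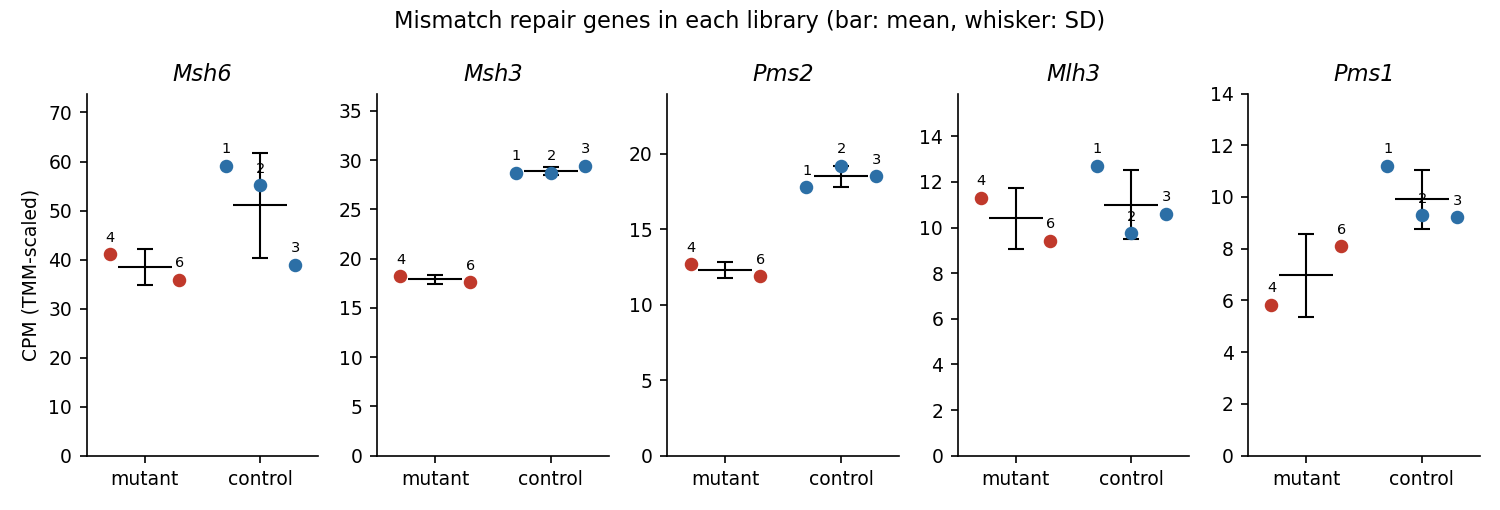
Level of each mismatch repair gene in each library, in TMM-scaled CPM (each panel has its own axis from 0); points are libraries with their numbers, red for the 2 mutants and blue for the 3 controls, bars are means and whiskers SD. Mutants lie below all controls for Msh3, Pms2 and Pms1, while control 3 falls among the mutants for Msh6 and the groups overlap for Mlh3.

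Pms2, the nicking subunit of the main MutL complex, had 143 and 154 counts in mutants 4 and 6, against 323, 324 and 263 counts in controls 1, 2 and 3. In CPM it was 12.7 and 11.9 in the mutants and 17.8, 19.2 and 18.5 in the controls. Its pattern was that of Msh3, with tight groups that did not overlap. The means were 12.3 ± 0.543 CPM in mutants and 18.5 ± 0.697 CPM in controls (SD, n = 2 and 3), or 66.3% of the control level. The log2 fold change of -0.59 ± 0.19 (95% interval -1.01 to -0.18) missed the threshold over all rows (edgeR adjusted p = 0.0675). The edgeR exact test placed it just past the threshold (adjusted p = 0.0482), and over the alternatives tried its adjusted p ran from 0.0482 to 0.319.

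Pms1, whose role in repair is unsettled, had 66 and 105 counts in mutants 4 and 6, against 204, 157 and 131 counts in controls 1, 2 and 3. In CPM it was 5.84 and 8.10 in the mutants and 11.2, 9.29 and 9.22 in the controls. Both mutants were below all controls, but they were further apart from each other than mutant 6 was from the lowest control. The log2 fold change was -0.51 ± 0.26 (95% interval -1.06 to 0.05; edgeR adjusted p = 0.234). It was the member with the fewest reads: 66 counts carry an exact Poisson 95% interval of 51.0 to 84.0, which covers counting error only, since amplified reads are not independent molecules.

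Mlh3, the MutL subunit of meiotic crossovers, had 128 and 122 counts in mutants 4 and 6, against 231, 165 and 151 counts in controls 1, 2 and 3. In CPM it was 11.3 and 9.41 in the mutants and 12.7, 9.76 and 10.6 in the controls. The groups overlapped, and mutant 4 stood above 2 of the 3 controls. The log2 fold change was -0.09 ± 0.23, with a 95% interval of -0.59 to 0.41 that leaves room for a change of either sign (edgeR adjusted p = 0.840). Its sign turned without control 1 (0.02) or without mutant 6 (0.03). On the deposited FPKM the log2 ratio of the group means was -0.43, against -0.09 in CPM, a larger gap between the scales than for any other member.

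Per transcript length, on the deposited FPKM, Msh6 was the most abundant member in all 5 libraries and Mlh3 the least. Msh6 averaged 9.31 ± 1.63 FPKM in mutants and 11.5 ± 3.91 FPKM in controls. Msh3 followed at 4.74 ± 0.519 FPKM in mutants and 7.17 ± 1.03 FPKM in controls. Pms2 was at 3.87 ± 0.101 FPKM in mutants and 5.86 ± 1.18 FPKM in controls. Pms1 was at 2.09 ± 0.227 FPKM in mutants and 3.12 ± 0.513 FPKM in controls, and Mlh3 was at 1.40 ± 0.234 FPKM in mutants and 1.89 ± 0.631 FPKM in controls. This order held within 4 of the 5 libraries, and in control 2 Pms2 stood above Msh3. Among controls the ranges of Msh6 and Msh3 overlapped, although Msh6 was the higher within every library, by a ratio of 1.09 in control 3 and 1.60 to 2.39 in the others. The ranges of Msh3 and Pms2 also overlapped among controls, and these neighbours in the order did not differ beyond their spread there; in the mutants neither pair of ranges overlapped. By control FPKM, Msh6 lay above 64.7% of the genes tested and Mlh3 above 25.7%.

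No difference in the balance between subunits that compete for a partner was detectable with so few libraries. Counts of Msh6 over counts of Msh3 within a library, a ratio into which no scaling of library size enters, were 2.26 and 2.04 in mutants 4 and 6, and 2.06, 1.92 and 1.32 in controls 1, 2 and 3. The difference in log2 ratio was 0.30 (exact permutation test over libraries, two-sided, p = 0.5). Control 3 alone held a low ratio. Counts of Pms2 over Pms1 were 2.17 and 1.47 in the mutants and 1.58, 2.06 and 2.01 in the controls (difference in log2 ratio -0.07; exact permutation p = 0.7). With 2 against 3 libraries the smallest p this test can give is 0.1; over the 26 ratios computed here, the adjusted p ran from 0.325 to 1.

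The partner genes stand mostly for steps after recognition, and most of these for gap filling and ligation. Those called lower were Pold1, Pold2 and Lig1. Of 20 partner genes listed, 19 passed the filter on low counts. In the mutants 3 were lower (4.17% of all genes), 0 were higher (6.11% of all genes) and 16 did not pass. The median log2 fold change was -0.23, with 17 of 19 negative (50.8% of all genes). At an unadjusted p under 0.05, 6 were lower (12.1% of all genes) and 1 higher (share of all genes not computed). Pold1, the catalytic subunit of DNA polymerase delta, was 11.9 and 12.9 CPM in mutants 4 and 6 and 19.7, 21.1 and 18.4 CPM in controls 1, 2 and 3 (log2 fold change -0.67 ± 0.19; edgeR adjusted p = 0.0411). Pold2, its accessory subunit, was 19.7 and 18.3 CPM in mutants and 35.9, 29.7 and 24.7 CPM in controls (-0.66 ± 0.19; edgeR adjusted p = 0.0417). Lig1, which encodes DNA ligase I, was 50.5 and 51.9 CPM in mutants and 76.3, 88.9 and 61.2 CPM in controls (-0.56 ± 0.16; edgeR adjusted p = 0.0430). In all 3 the groups did not overlap in CPM, with both mutants below all controls, as in 21.8% of all genes. On the deposited FPKM the groups of Lig1 overlapped, with mutants 4 and 6 at 16.5 and 15.9 and control 3 at 16.3. All 3 calls lay near the threshold, and none was left without control 1, control 2, mutant 4 or mutant 6, with upper-quartile scaling, with limma-voom or on the deposited FPKM.

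Most other partners also had a negative log2 fold change, and only Pold4 and Msh5 lay above 0 (0.50 and 0.09). In CPM both mutants lay below all controls in 8 of the 19 partners tested (21.8% of all genes). They lay above all controls in 1 (21.7% of all genes). Among the 8 were Rfc3 and Hmgb1, at -0.45 and -0.48 (edgeR adjusted p = 0.118 and 0.147). Exo1, the excision exonuclease, was 10.6 and 13.1 CPM in mutants 4 and 6 and 17.4, 17.0 and 17.5 CPM in controls 1, 2 and 3 (log2 fold change -0.54; edgeR adjusted p = 0.104). Pcna, the clamp, was 38.0 and 39.2 CPM in mutants and 41.9, 58.6 and 41.8 CPM in controls (-0.30; edgeR adjusted p = 0.299). Neither group pair overlapped in CPM, but neither gene passed. On the deposited FPKM the groups of Pcna overlapped, with mutants 4 and 6 at 26.6 and 27.7 and control 3 at 26.5. The clamp loader genes Rfc1 to Rfc5 had log2 fold changes of -0.45 to -0.06, and the single-strand binding genes Rpa1, Rpa2 and Rpa3 of -0.28 to -0.05. Setd2, whose histone mark recruits MSH6 in human cells, was 146 and 149 CPM in mutants and 155, 148 and 162 CPM in controls (-0.07 ± 0.12; edgeR adjusted p = 0.772). Pold4, the smallest polymerase delta subunit, ran the other way, at 21.5 and 25.4 CPM in mutants and 16.8, 21.0 and 11.8 CPM in controls (0.50; edgeR adjusted p = 0.185). Of the meiotic MutS genes, Msh5 was at 3.10 and 3.39 CPM in mutants and 3.58, 3.97 and 1.55 CPM in controls (edgeR adjusted p = 0.922), and Msh4 had 0 to 6 counts in each library and was not tested.

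**Figure D2:**
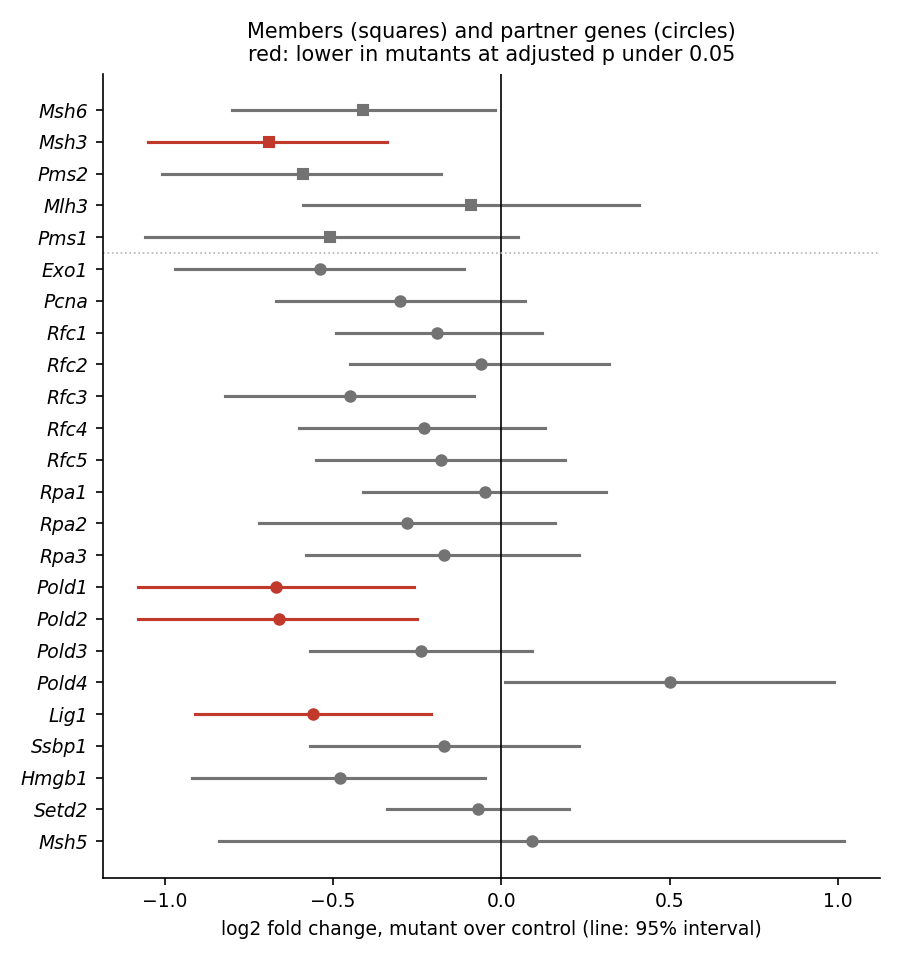
Log2 fold change, mutant over control, of the 5 mismatch repair genes (squares, above the dotted line) and the 19 partner genes tested (circles); lines are 95% intervals of the edgeR fit and red marks an adjusted p under 0.05. Msh3, Pold1, Pold2 and Lig1 are the 4 in red, most points lie left of 0, and Pold4 stands at 0.50.

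The median of the 5 mismatch repair genes (-0.51) lay between those of the S phase and mitosis lists. For the counts below, 4.17% of all genes tested were lower and 6.11% higher at an edgeR adjusted p under 0.05. At an unadjusted p under 0.05, 12.1% were lower, and the share higher was not computed. Base excision repair, which removes damaged single bases, had a median log2 fold change of -0.33 over 17 genes, of which 2 were lower (the glycosylase Neil3 and the endonuclease Apex1) and 0 higher; 5 were lower and 0 higher at an unadjusted p under 0.05. Nucleotide excision repair, which removes bulky lesions, had a median of -0.04 over 15 genes with 0 calls by any of the edgeR tests, DESeq2 or limma-voom and 0 at an unadjusted p under 0.05. The S phase list had a median of -0.32 over 19 genes, with 4 lower (Mcm4, Mcm6, Tyms and Tk1) and 1 higher (Mcm2). The mitosis list had a median of -0.82 over 15 genes, of which 13 were lower and 0 higher, with 15 lower and 0 higher at an unadjusted p under 0.05 and 0 higher by the other tools. Since Ki67 staining set which areas were captured, neither the cell cycle lists nor repair genes that act at replication are free of that selection. RNA of Mki67, which encodes Ki67, was not absent from the mutant areas. Mki67 averaged 508 CPM in mutants and 907 CPM in controls (log2 fold change -0.84, edgeR adjusted p = 0.00284).

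**Figure D3:**
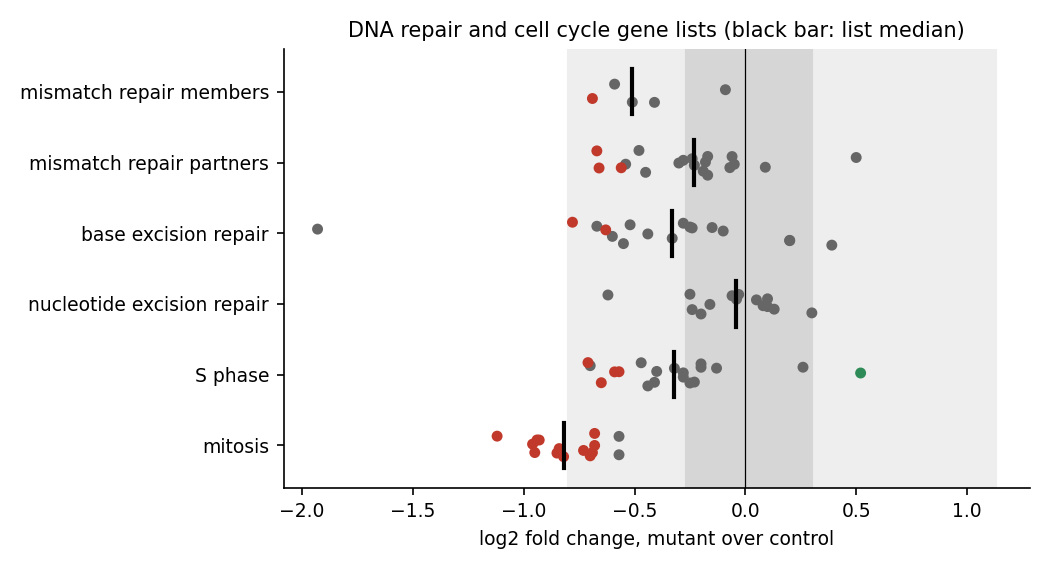
Log2 fold change, mutant over control, of each tested gene in 6 lists; red points are lower and green higher in mutants at an edgeR adjusted p under 0.05, black bars are list medians, and the shaded bands hold the middle 50% and 90% of all genes tested. The median of the mismatch repair genes (-0.51) lies between those of S phase (-0.32) and mitosis (-0.82), and the point at -1.93 is Neil2, which averaged 0.260 CPM in mutants and 0.968 CPM in controls and did not pass.

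Set against summed S phase counts in the same library, Msh3 stood at 2.54 and 2.37 per 100 in mutants 4 and 6 and at 3.02, 2.82 and 3.78 per 100 in controls 1, 2 and 3. The mutants were still below all controls, but the difference in log2 was -0.38 (exact permutation p = 0.2), against -0.69 on the scale of all reads. Set against summed mitosis counts, Msh3 was 1.42 and 1.38 per 100 in mutants and 1.26, 1.15 and 1.46 per 100 in controls. Its difference thus turned to the other side (0.12, exact permutation p = 0.5). The mitosis list itself had a median log2 fold change of -0.82, so a gene or sum that fell less than the list rises in this ratio. Set against the 10 epithelial markers, Msh3 was 0.407 and 0.404 per 100 in mutants and 0.621, 0.601 and 0.628 per 100 in controls (difference -0.60; exact permutation p = 0.1, the smallest possible). The 5 members summed gave 12.4 and 11.2 per 100 S phase counts in mutants and 13.6, 12.0 and 13.7 in controls (difference -0.15; exact permutation p = 0.3). Per 100 mitosis counts they gave 6.92 and 6.48 in mutants and 5.67, 4.91 and 5.32 in controls, with both mutants above all controls (difference 0.34; exact permutation p = 0.1, the smallest possible). They gave 1.99 and 1.90 per 100 epithelial counts in mutants and 2.80, 2.56 and 2.28 in controls (difference -0.38; exact permutation p = 0.2). Whether any part of the difference in Msh3 goes with a change in the number of cells in S phase was not tested.

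The neighbours of the members along the chromosome did not all move with them. Rasgrf2, an exchange factor for Ras and Rac that lies beside Msh3, fell to 24.9 and 26.5 CPM in mutants, against 64.9, 55.2 and 54.0 CPM in controls (-1.17 ± 0.15; edgeR adjusted p = 0.000309).

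Pms2 starts 162 bases from Aimp2, which encodes a scaffold of tRNA synthetases on the other strand, and their windows share 261 bases. Aimp2 was 34.2 and 36.9 CPM in mutants 4 and 6 and 43.4, 49.1 and 43.9 CPM in controls 1, 2 and 3 (log2 fold change -0.35 ± 0.15; edgeR adjusted p = 0.146). The mutants lay below all controls and the gene did not pass. Pms1 starts 67 bases from Ormdl1, a regulator of sphingolipid synthesis, with 166 shared bases. Ormdl1 was 28.9 and 30.3 CPM in mutants and 27.4, 24.5 and 28.8 CPM in controls (0.14 ± 0.16, edgeR adjusted p = 0.625). In CPM its mutants lay above all controls while those of Pms1 lay below. On the deposited FPKM the groups of Ormdl1 overlapped, with both mutants at 13.8 and control 1 at 15.5. Counts of Pms1 over Ormdl1 were 0.202 and 0.267 in mutants and 0.410, 0.379 and 0.320 in controls (difference in log2 -0.66, exact permutation p = 0.1, the smallest possible). The same difference was -0.24 for Pms2 over Aimp2 and 0.48 for Msh3 over Rasgrf2 (exact permutation p = 0.1 for each). For Msh6 over its neighbour Fbxo11 it was -0.44 (exact permutation p = 0.3). Over the 26 ratios the lowest adjusted p was 0.325.

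Msh6 ends where Fbxo11, a ubiquitin ligase subunit on the other strand, also ends. Fbxo11 was 74.7 and 72.0 CPM in mutants 4 and 6 and 73.9, 66.2 and 72.7 CPM in controls 1, 2 and 3 (log2 fold change 0.05; edgeR adjusted p = 0.856). No source used here says whether counting used strand, so reads in the overlap of Msh6 with Fbxo11 cannot be told apart. Of the remaining neighbours, Eif2b2 and Acyp1 beside Mlh3 had log2 fold changes of 0.04 and 0.05 and Ccz1 beside Pms2 of -0.17, and none passed. Kcnk12 before Msh6 had 0 counts in every library and 1700019A02Rik before Pms1 did not pass the filter on low counts.

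**Figure D4:**
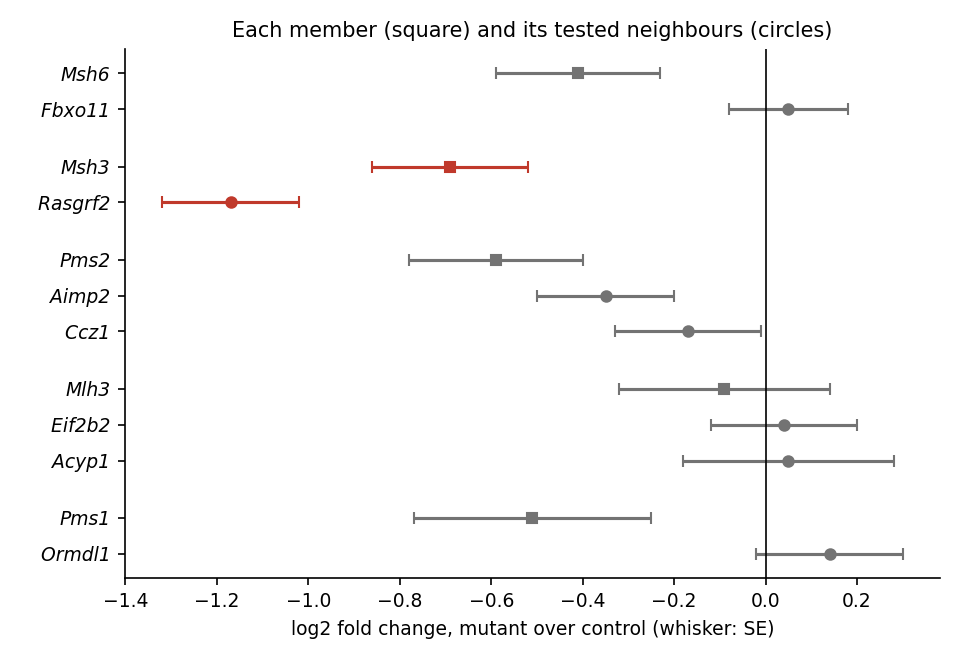
Log2 fold change, mutant over control, of each mismatch repair gene (square) and the neighbouring genes that were tested (circles below it); whiskers are SE and red marks an edgeR adjusted p under 0.05. Msh3 and its neighbour Rasgrf2 are the 2 in red, and Pms1 (-0.51) and Ormdl1 (0.14) lie on opposite sides of 0.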

How the data were processed

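Per the submitters' processing notes, the authors used genome build mm9 and edgeR; no source used here names the aligner or the counting program. They deposited raw counts for each RefSeq transcript and, for the same rows, FPKM. Per the labels' protocols, 2.3 to 33.3 ng of RNA per sample was amplified and sequenced as single reads of 100 bp. All 28644 rows were kept, 0 columns of per-sample values were unmatched, and 41 spreadsheet dates were renamed by transcript. The deposited counts were fitted with edgeR 4.0.16 in R 4.3.3 by its quasi-likelihood test (default low-count filter, TMM, no covariate, 3 residual degrees of freedom), with Benjamini-Hochberg adjustment over 19353 rows of 14572 genes. A gene is its row with the highest mean count. SE is the absolute log2 fold change over the square root of F. The fit was tested on simulated counts. DESeq2 1.42.0 and limma 3.58.1 served as alternatives.

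The members and lists were chosen with earlier results of these data known. Partner genes past the threshold and those with the lowest adjusted p are named by rule; the others were chosen as examples after their values were seen. Neighbours are the nearest genes of the deposited table on each side, in the gene order of GRCm38.p6, leaving out genes inside a member. Results for some other family, list and neighbouring genes are not reported here. Libraries of a group differed by more than sampling noise (chi-square per gene 10.1 to 26.2). The labels do not say that each came from its own mouse, and p-values then reflect the spread between libraries alone, which may be technical.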

Additional observations from a re-analysis of the deposited data

How the results depend on the processing

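Over 15 alternatives, the sign of Msh6, Msh3, Pms2 and Pms1 did not turn; Mlh3 turned without control 1 (0.02) and without mutant 6 (0.03). Leaving out 1 library at a time gave log2 fold changes of -0.72 to -0.67 for Msh3, -0.57 to -0.29 for Msh6, -0.64 to -0.55 for Pms2, -0.77 to -0.29 for Pms1 and -0.23 to 0.03 for Mlh3. Msh3 lost its call without control 1, mutant 4 or mutant 6. Leaving out 1 library also gave 0 to 2 members lower, 0 to 3 partners lower, 170 to 645 genes lower and 408 to 1057 higher in all (608 and 891 with all libraries), a log2 Msh6 to Msh3 difference of 0.11 to 0.43 and a Pms2 to Pms1 difference of -0.35 to 0.21, turned without mutant 6 (0.21). On log2(FPKM + 1), limma called 131 genes lower and 335 higher, with 0 members and 0 partners lower and Msh3 at -0.50; on log2(FPKM + 0.1), 165 and 341, with 0, 0 and -0.58. The edgeR exact test called 2 members lower, with Pms2 at -0.59. Partners lower were 0 with limma-voom and 0 with upper-quartile scaling, and with no low-count filter 935 genes were lower. Fewer libraries and fewer degrees of freedom are part of leaving 1 out; for the other settings the cause was not tested. No paired analysis was possible because mutants (4 and 6) and controls (1, 2 and 3) share no replicate number. With 66 to 1074 counts per member and library, and 2 mutants, differences of the size seen for Pms1 and Mlh3 were within the error.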

Other observations

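For each member, the genes with the most similar profile over the 5 libraries were sought among 10010 genes whose mean log2 CPM reached 3, by the root mean square difference of centred log2 CPM. This likeness is a description with no test, and most profiles of 5 points have close matches. The gene nearest to Msh6 was Pole, the catalytic subunit of DNA polymerase epsilon, which copies the leading strand (0.043 log2 units), followed by Sec61a2 (0.045). Nearest to Msh3 were the translation initiation factor Eif4b (0.042) and the kinase Pim3 (0.053), and nearest to Pms2 were BC056474 (0.023) and Abtb1 (0.045). Pms1 was nearest to Syde2 (0.039) and Smagp (0.049), and Mlh3 to Dach1 (0.029) and Wdr45 (0.033). Among the members themselves, Msh3 and Pms2 were closest to each other, at 0.063 log2 units; Pms2 was the gene at rank 11 from Msh3. Msh6 lay 0.238 to 0.270 log2 units from each other member, and Mlh3 0.248 to 0.327.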
